A study of Mus musculus with 8 samples.

Results

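The genes described here are members of the fibroblast growth factor (FGF) pathway: the ligands *Fgf2*, *Fgf7*, *Fgf10* and *Fgf18*, the receptors *Fgfr1*, *Fgfr2* and *Fgfr3*, and the feedback inhibitors *Spry2*, *Spry4* and *Dusp6*. They were taken by gene symbol, and all 10 were among the 18990 genes of the deposited table and among the 13866 genes that passed the filter for low values, which is a mean of at least 1 CPM (reads scaled to the library size). RNA-seq was performed on primary mouse embryonic fibroblasts (MEFs) of the BL6 strain with a wild-type genotype, which the labels give as reprogrammed at passage 2. All groups carried a lentiviral tet-STEMCCA cassette, which expresses *Oct4*, *Sox2*, *Klf4* and *c-Myc* under doxycycline, together with rtTA, and all were kept in medium with doxycycline (2 µg/mL), the GSK3 inhibitor chiron (3 µM), the TGF-β receptor inhibitor Alk5i (0.25 µM), ascorbic acid and LIF. Before induction, the cells received pooled siRNAs at 40 nM against *Ncor1*, which encodes a nuclear receptor corepressor, or against *Oct4*. RNA was collected at day 3 or day 6, with 2 libraries in each of the 4 groups, which the study describes as biological replicates. The p-values therefore measure the spread between these samples, with an estimate for each gene that the 4 groups share. Each library is a bulk sample of a whole culture, the siRNAs act transiently, and the siRNAs against *Oct4* also meet the transcripts of the cassette. The non-targeting control was not analysed here, so a knockdown is set against the other knockdown, or a day against the other day.

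FGF ligands are secreted proteins that are held near the cell surface by heparan sulphate and bind receptor tyrosine kinases, which signal through adaptor proteins to the RAS, RAF, MEK and ERK kinase cascade. *Fgf7* and *Fgf10* are typical products of mesenchymal cells and act on the splice form of FGFR2 found in epithelia, whereas *Fgf2* acts on several receptors and sustains fibroblast growth in culture. ERK signalling induces its own inhibitors, among them the Sprouty proteins and the ERK phosphatase DUSP6, and the RNA of these genes is widely used as a readout of the pathway. In mouse pluripotent cells, FGF signalling through ERK promotes exit from the naive state.

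Promoter windows of 4 members are shown, because *Fgf7* and *Fgfr2* had the largest decreases from day 3 to day 6 in the libraries labelled *siOct4*, *Dusp6* rose in both knockdowns, while *Spry2* passed the threshold between the days in neither knockdown. Each window holds the 250 bases before the start of the gene in RefSeq, on GRCm38.p6, written from 5′ to 3′ with CG dinucleotides in capitals.
*Fgf7*, chr2:126034408-126034657, plus strand: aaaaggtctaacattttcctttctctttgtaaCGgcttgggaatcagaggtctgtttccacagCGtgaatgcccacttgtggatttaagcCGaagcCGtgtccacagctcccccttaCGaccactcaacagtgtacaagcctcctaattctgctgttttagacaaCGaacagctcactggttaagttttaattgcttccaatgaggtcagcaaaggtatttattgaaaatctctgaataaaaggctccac
*Fgfr2*, chr7:130266809-130267058, minus strand: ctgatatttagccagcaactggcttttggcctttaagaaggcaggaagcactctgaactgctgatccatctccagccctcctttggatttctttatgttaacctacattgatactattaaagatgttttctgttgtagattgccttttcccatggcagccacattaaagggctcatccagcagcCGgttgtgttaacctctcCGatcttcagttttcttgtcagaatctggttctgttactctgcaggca
*Dusp6*, chr10:99262981-99263230, plus strand: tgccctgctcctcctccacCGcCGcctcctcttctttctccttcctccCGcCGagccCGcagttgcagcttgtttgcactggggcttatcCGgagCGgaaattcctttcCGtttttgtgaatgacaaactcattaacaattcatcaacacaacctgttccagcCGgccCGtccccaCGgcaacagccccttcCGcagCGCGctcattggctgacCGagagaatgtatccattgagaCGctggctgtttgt
*Spry2*, chr14:105896820-105897069, minus strand: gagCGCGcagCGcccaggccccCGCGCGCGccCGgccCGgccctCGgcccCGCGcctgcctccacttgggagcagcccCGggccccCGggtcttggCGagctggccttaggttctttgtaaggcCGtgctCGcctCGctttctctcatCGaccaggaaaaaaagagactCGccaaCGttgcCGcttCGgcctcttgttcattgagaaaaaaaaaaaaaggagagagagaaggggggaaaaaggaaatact
The *Fgf7* window held 6 CG dinucleotides and the *Fgfr2* window held 2, against a median of 6 over the 32851 windows of the RefSeq table, and 53.7% and 29.0% of all windows held no more CG than these. The *Dusp6* window held 16 and the *Spry2* window 23, and 76.5% and 88.0% of windows held no more. RefSeq entries were found for 8 members, without *Fgfr1* and *Spry4*. The other windows held between 8 (*Fgf10*) and 37 (*Fgf18*) CG dinucleotides. Of 8 motifs searched on both strands, the GC box (GGGCGGGG) was found in windows of *Fgf2*, *Fgf10* and *Fgfr3*, and it is found in 16.1% of all windows. The motif of ETS factors, which ERK signalling activates (CCGGAAGT, in 2.88% of all windows), was in none of the windows of these members, nor was the AP-1 motif (TGA and TCA on either side of any base, 6.75%). The same holds for the E-box (CACGTG, 6.02%) and the octamer (ATGCAAAT, 1.60%). It also holds for the SOX motif (CATTGT, 10.7%) and the CRE (TGACGTCA, 1.55%), and for the TATA motif (TATAAA, 12.4%). These matches are a description of the letters in the windows.

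The libraries held between 7735742 and 16445192 reads on genes, so that 3 reads correspond to between 0.174 and 0.380 CPM. The non-coding gene *Gm26917* held 15.5% to 16.6% of reads in day 3 libraries and 20.3% to 29.1% in day 6 libraries. *Ncor1*, the target in *siNcor1*, was lower there (135 and 146 CPM) than in the libraries labelled *siOct4* (226 and 245 CPM) at day 3 (log2 difference 0.74 ± 0.12, SE; limma, adjusted p = 0.0139), whereas at day 6 the values were 153 and 156 CPM against 160 and 140 CPM. *Pou5f1*, which encodes OCT4, did not follow the label at day 3 or day 6. It was 197 and 205 CPM in *siNcor1* and 185 and 197 CPM in those labelled *siOct4* at day 3, and 187 and 160 CPM against 700 and 501 CPM at day 6. For this reason the label alone is used as the name of these libraries, and each direction given for them is that of the label. The other genes of the cassette were also higher in these libraries at day 6, with log2 fold changes of 1.63 for *Sox2*, 1.67 for *Klf4* and 1.59 for *Myc*, beside 1.78 for *Pou5f1*. The paper states that *Oct4* RNA, measured by RT-qPCR in a time course, was silenced before day 3 and then recovered quickly. It puts the recovery down to expression from the cassette, which was not tested here.

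Markers of cell types moved with the groups. The summed level of 11 fibroblast markers was 8313 to 8475 CPM in *siNcor1* and 11069 to 12548 CPM in the libraries labelled *siOct4* at day 3, and 6281 to 6491 CPM against 3486 to 3688 CPM at day 6, where 8 of the 11 were lower in the latter. None of these markers was at 0 in a group. At day 3, 0 of the 11 passed the threshold (limma), where 1.07% of all genes tested did. An unadjusted p under 0.05 was found for 6 of the 11, and for 1460 of the 13866 genes tested. The sum is set by the most abundant markers, since from day 3 to day 6 in *siNcor1* it was lower while 6 of the 11 markers rose and 2 fell. Of all genes tested, 13.8% rose and 20.9% fell in this comparison (limma). The sum of 10 epithelial markers was 57.3 to 59.7 CPM against 16.8 to 19.6 CPM at day 3 and 701 to 748 CPM against 303 to 334 CPM at day 6. In the libraries labelled *siOct4*, 5 of the 10 were lower at day 3 (limma, 0.692% of all genes). At day 6, 8 of the 10 were lower there (18.6% of all genes). Of 5 neural markers, 3 passed the filter. In the libraries labelled *siOct4*, 1 of the 3 was higher at day 3 (limma, 0.375% of all genes) and all 3 at day 6 (12.1% of all genes). The sums over the list at day 6 were 114 to 132 CPM there against 45.2 to 46.4 CPM in *siNcor1*. Endothelial markers summed to between 16.7 and 45.0 CPM and macrophage and leukocyte markers to between 4.35 and 10.0 CPM in all groups. The endothelial sum was mostly *Tek* (15.8 to 43.2 CPM), the only 1 of these 5 markers that passed the filter. In these bulk samples, fewer cells of a type and less RNA per cell cannot be told apart, and the part of the marker shifts in the results for FGF genes was not tested.

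At day 6, most FGF genes had lower levels in the libraries labelled *siOct4* than under *siNcor1*. All 10 members differed (limma, adjusted p under 0.05), against a background of 30.7% of all genes tested. The members were chosen with earlier results of these data known, so counts set beside a background here and below are a description. The replicates of the groups did not overlap for any member, nor for 64.7% of all genes tested. Of the members, 8 were lower (background 18.6%) and 2, *Fgf18* and *Fgfr3*, were higher (background 12.1%). The median log2 fold change of the members was −0.61, and that of all genes tested was −0.025. *Fgf10*, *Fgfr2*, *Fgfr3* and *Dusp6* had the 4 lowest adjusted p-values and remained past the threshold in every fit that tested them, while for *Fgf18*, *Fgfr1* and *Spry4* the adjusted p was between 0.0401 and 0.0491 and the call depended on the processing. The count of members past the threshold fell to 5 without *siNcor1* day 6 R1 and to 4 without *siNcor1* day 6 R2, and was between 7 and 9 without any other single library. Figures of the CPM values in each library and of the differences between the knockdowns show these patterns.

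**Figure D1:**
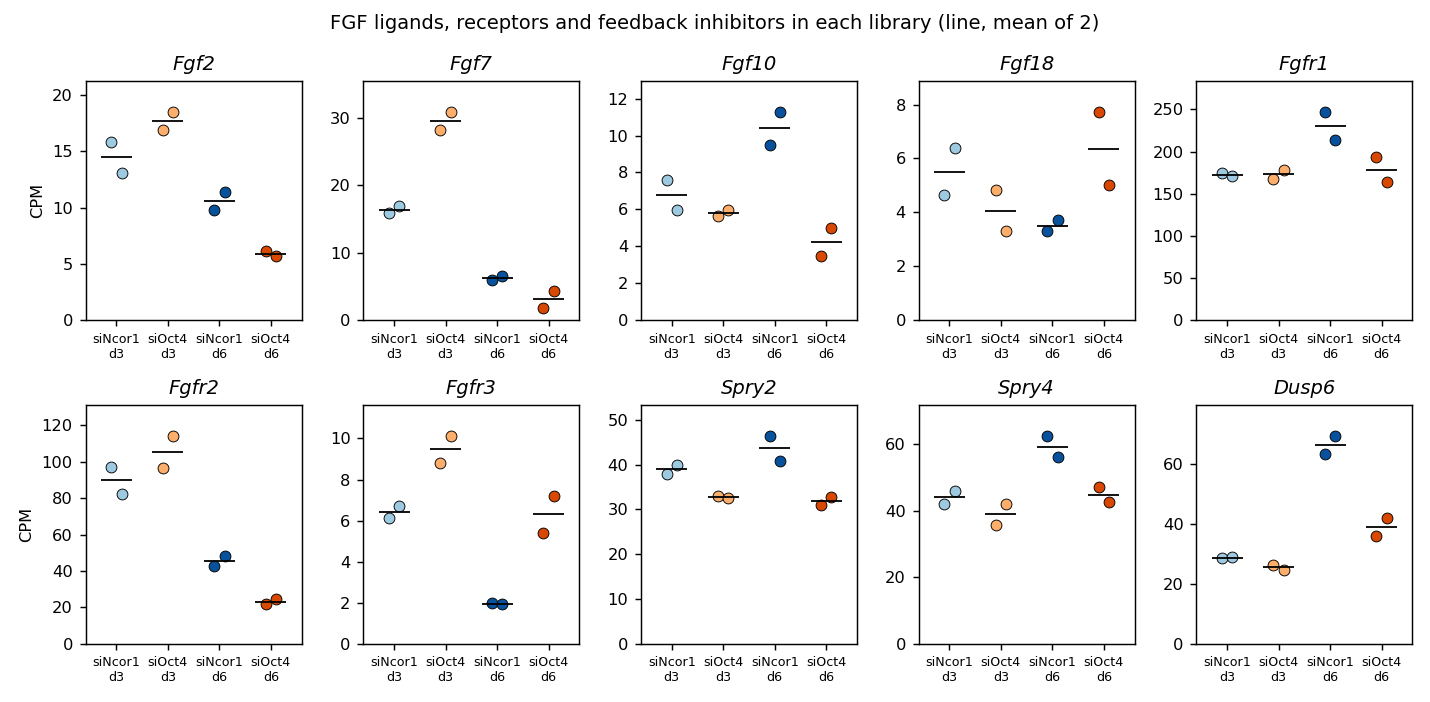
CPM (vertical axis, from 0) of each FGF gene in each of the 8 libraries, by knockdown and day (d3, d6), with points for libraries and lines for the mean of 2. *Fgf7* and *Fgfr2* were lowest in the libraries labelled siOct4 at day 6, *Fgfr3* was lowest in siNcor1 at day 6 (1.98 and 1.93 CPM), and *Dusp6* was highest in siNcor1 at day 6 (63.4 and 69.5 CPM).

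Among the ligands, *Fgf7*, a mesenchymal growth factor for epithelial cells (chr2:126034658-126091185, GRCm38), had the largest range. It was 15.8 and 16.9 CPM in *siNcor1* and 28.2 and 30.9 CPM in those labelled *siOct4* at day 3, and 5.95 and 6.47 CPM against 1.80 and 4.33 CPM at day 6. The order of the knockdowns was thus opposite at the 2 days, and the groups did not overlap at either. The values of 1.80 and 4.33 CPM came from 17 and 51 reads, with exact Poisson intervals (95%, counting error only) of 1.05 to 2.88 and 3.22 to 5.69 CPM, so that these replicates differed by more than counting error. The log2 fold change between the knockdowns was 0.84 ± 0.30 (SE) at day 3, which did not pass the threshold (limma, adjusted p = 0.277), and −1.11 ± 0.30 at day 6 (adjusted p = 0.0168). From day 3 to day 6 *Fgf7* fell in both knockdowns, by 1.38 on the log2 scale in *siNcor1* (limma, adjusted p = 0.00461) and it fell by 3.33 in those labelled *siOct4* (adjusted p = 5.49e-06), a 10.1-fold decrease. The call at day 6 was lost without *siNcor1* day 6 R1 (log2 fold change −1.17), *siNcor1* day 6 R2 (−1.05) or *siOct4* day 6 R1 (−0.51), and the call in *siNcor1* between the days was lost without *siNcor1* day 3 R2 (−1.33, limma, adjusted p = 0.0509). At day 3, *Fgf7* passed the threshold in a fit of only the groups compared (adjusted p = 0.0173), with voom weights on the reads (adjusted p = 0.0464) and without *siOct4* day 6 R1 or R2 (adjusted p = 0.0104 and 0.0127).

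*Fgf10*, a related mesenchymal ligand required for limb and lung outgrowth (chr13:118669791-118792115), followed another course. It was 7.61 and 5.97 CPM in *siNcor1* and 5.62 and 5.95 CPM in those labelled *siOct4* at day 3, which is a close set of values in which R2 of *siNcor1* lies just above the other group. At day 6 it was 9.50 and 11.3 CPM in *siNcor1* and 3.49 and 5.01 CPM in the libraries labelled *siOct4*, and all values of the latter were below all other libraries. The difference at day 6 was −1.28 ± 0.23 (log2, SE; limma, adjusted p = 0.00239), a 2.43-fold lower level. Between the days, the changes of 0.61 ± 0.23 in *siNcor1* (limma, adjusted p = 0.0608) and −0.46 ± 0.23 in the libraries labelled *siOct4* (adjusted p = 0.118) did not pass the threshold. The former passed without *siOct4* day 6 R1 or R2 (adjusted p = 0.0243 and 0.0259) and the latter without *siOct4* day 6 R2 (−0.71, adjusted p = 0.0265). An antisense gene, *Gm16263*, shares exon sequence with *Fgf10*, and since the strand setting of the counting is not given in the sources used here, reads of such partners cannot be told apart.

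*Fgf2*, a ligand without a classical signal peptide (chr3:37348346-37410108), was 15.8 and 13.1 CPM in *siNcor1* and 16.9 and 18.5 CPM in those labelled *siOct4* at day 3, and 9.75 and 11.3 CPM against 6.13 and 5.69 CPM at day 6. Its 4 groups did not overlap, and the libraries labelled *siOct4* were the highest at day 3 and the lowest at day 6. The difference was 0.29 ± 0.18 at day 3 (limma, adjusted p = 0.661) and −0.82 ± 0.18 at day 6 (adjusted p = 0.00564). From day 3 to day 6 it fell by 1.56 on the log2 scale in the libraries labelled *siOct4* (limma, adjusted p = 2.65e-05), while the change of −0.45 ± 0.18 in *siNcor1* did not pass (adjusted p = 0.0675) except without *siOct4* day 6 R1 or R2 (adjusted p = 0.0413 and 0.0406) and in a fit of only these groups (adjusted p = 0.0440). Without *siNcor1* day 6 R2 the difference at day 6 was −0.71 (limma, adjusted p = 0.0701). Exons of *Fgf2* overlap those of *Nudt6* on the other strand and of *Gm43439* on the same strand, so part of its reads could belong to these genes.

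*Fgf18*, a ligand with roles in cartilage and bone (chr11:33117430-33147400), was higher in the libraries labelled *siOct4* at day 6, unlike the other ligands among the members. It was 4.64 and 6.38 CPM in *siNcor1* and 4.81 and 3.29 CPM in those labelled *siOct4* at day 3, where the groups overlapped, and 3.30 and 3.70 CPM against 7.71 and 5.01 CPM at day 6, where they did not. These values rest on 26 to 110 reads, and the replicates in the libraries labelled *siOct4* were 1.46-fold apart at day 3 and 1.54-fold at day 6. The difference was −0.44 ± 0.28 at day 3 (limma, adjusted p = 0.696) and 0.81 ± 0.28 at day 6 (adjusted p = 0.0491). The day 6 call was lost without *siNcor1* day 3 R1 or R2 (both 0.81), *siNcor1* day 6 R1 (0.73) or R2 (0.89), or *siOct4* day 6 R1 (0.50, limma, adjusted p = 0.243), and in 4 of 10 other settings. Changes between the days were −0.62 ± 0.28 in *siNcor1* (limma, adjusted p = 0.111) and 0.63 ± 0.28 in the libraries labelled *siOct4* (adjusted p = 0.0826), and the latter passed without *siOct4* day 6 R2 (0.93, adjusted p = 0.0212).

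**Figure D2:**
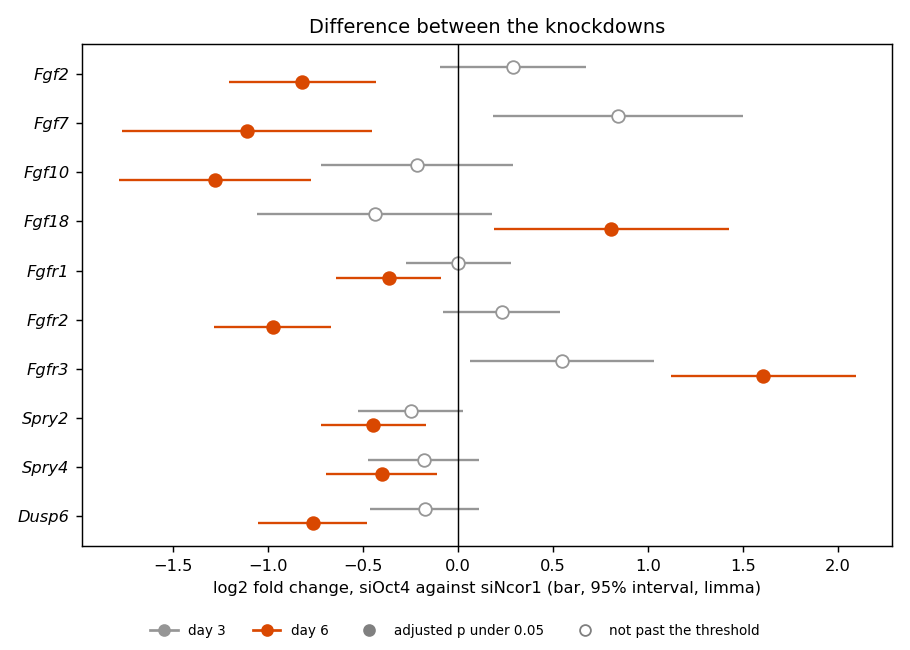
Log2 fold change of each FGF gene between the libraries labelled siOct4 and siNcor1 (horizontal axis, values above 0 are higher in siOct4) at day 3 (grey) and day 6 (orange), with 95% intervals from limma and filled points for an adjusted p under 0.05. No point is filled at day 3 and all 10 are filled at day 6, with *Fgf18* and *Fgfr3* to the right of 0.

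Among the receptors, *Fgfr2*, the receptor with alternative mesenchymal and epithelial splice forms, had the largest change between the days in the libraries labelled *siOct4*. It was 97.2 and 82.4 CPM in *siNcor1* and 96.5 and 114 CPM in those labelled *siOct4* at day 3, where the groups overlapped. At day 6 it was 42.7 and 48.2 CPM in *siNcor1* and 21.7 and 24.4 CPM in the libraries labelled *siOct4*, so every day 6 library was below every day 3 library and the knockdowns did not overlap. *Fgfr2* was 1.97-fold lower in the libraries labelled *siOct4* at day 6 (log2 fold change −0.98 ± 0.14, SE; limma, adjusted p = 0.000772), and 0.23 ± 0.14 on the log2 scale from *siNcor1* at day 3 (adjusted p = 0.669). It fell by 0.98 from day 3 to day 6 in *siNcor1* (limma, adjusted p = 0.000447) and it fell by 2.18 in those labelled *siOct4* (adjusted p = 5.20e-07). The values are totals over both splice forms. In the GENCODE annotation, *Fgfr2* spans chr7:130162451-133123350 because a long transcript model reaches exons of *Ctbp2*, so a share of reads at those exons may have been assigned to either gene.

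*Fgfr1*, the main receptor of fibroblasts (chr8:25513654-25575718), varied less. It was 174 and 171 CPM in *siNcor1* and 168 and 178 CPM in those labelled *siOct4* at day 3, and 247 and 213 CPM against 193 and 164 CPM at day 6. Only at day 6 did the groups not overlap, with *siNcor1* higher than all other libraries. The difference was 0.0018 ± 0.13 at day 3 (limma, adjusted p = 0.999, 95% interval −0.27 to 0.28) and −0.37 ± 0.13 at day 6 (adjusted p = 0.0462), and its sign at day 3 was negative in some settings. *Fgfr1* rose by 0.41 ± 0.13 from day 3 to day 6 in *siNcor1* (limma, adjusted p = 0.0253), and the change in the libraries labelled *siOct4* was 0.044 ± 0.13 (adjusted p = 0.790). The difference at day 6 did not pass when any of the 7 libraries other than *siOct4* day 6 R1 was left out (log2 fold change between −0.47 and −0.25), nor in 6 of 11 other settings. The rise in *siNcor1* did not pass without *siNcor1* day 3 R1 (0.43), *siNcor1* day 3 R2 (0.40) or *siNcor1* day 6 R1 (0.31). An antisense gene, *Gm16159*, shares exon sequence with *Fgfr1*.

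*Fgfr3*, a receptor known for restraining bone growth (chr5:33721674-33737068), was the least abundant receptor. It had the largest difference between the knockdowns at day 6. It was 6.12 and 6.73 CPM in *siNcor1* and 8.81 and 10.1 CPM in those labelled *siOct4* at day 3, and 1.98 and 1.93 CPM against 5.39 and 7.21 CPM at day 6. The *siNcor1* libraries of day 6, with 24 and 23 reads, lay well below all others, and the knockdowns did not overlap at either day. The difference was 0.55 ± 0.22 at day 3 (log2, SE; limma, adjusted p = 0.375) and 1.61 ± 0.22 at day 6 (adjusted p = 0.000642), a 3.04-fold higher level in the libraries labelled *siOct4*. *Fgfr3* fell from day 3 to day 6 by 1.65 in *siNcor1* (limma, adjusted p = 0.000298) and it fell by 0.59 in those labelled *siOct4* (adjusted p = 0.0427). The latter call was lost without any of the 7 libraries other than *siOct4* day 6 R2 (log2 fold change between −0.69 and −0.38). A gene of uncertain coding status on the other strand, *G630022F23Rik*, overlaps exons of *Fgfr3*.

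Per kilobase of the longest coding transcript (RPKM, which allows levels of different genes to be compared), *Fgfr1* was the most abundant receptor in every library. Its share of the summed receptor RPKM was 55.0% to 62.1% at day 3, with *Fgfr2* at 35.0% to 41.3% and *Fgfr3* at 2.46% to 3.72%. At day 6 the share of *Fgfr1* was 78.4% to 85.9% in both knockdowns, that of *Fgfr2* was 16.7% and 20.7% in *siNcor1* and 11.3% and 14.2% in the libraries labelled *siOct4*, and that of *Fgfr3* was 0.787% and 0.844% against 2.84% and 4.26%. The order *Fgfr1*, *Fgfr2*, *Fgfr3* therefore held in every library, while the ratio of *Fgfr2* to *Fgfr3* RPKM was 21.2 and 24.6 in *siNcor1* and 3.96 and 3.34 in those labelled *siOct4* at day 6. Among the 4 ligands described here, *Fgf7* had the largest share in every day 3 library, 40.0% to 60.4% of their summed RPKM. At day 6 *Fgf18* had the largest share of these 4 in every library, at 33.0% and 32.5% in *siNcor1* and 73.6% and 54.9% in the libraries labelled *siOct4*. The sum leaves out *Fgf4* and *Fgf16*, other ligands that passed the filter. At day 6 *Fgf4* was 10.2 and 9.58 CPM in *siNcor1* and 11.8 and 8.57 CPM in the libraries labelled *siOct4*. The summed ligand RPKM was 14.7 and 15.9 in *siNcor1* and 19.2 and 19.1 in those labelled *siOct4* at day 3, and 9.21 and 10.5 against 9.65 and 8.40 at day 6, where the knockdowns overlapped. The summed receptor RPKM was 59.3 and 54.0 in *siNcor1* and 44.7 and 39.9 in those labelled *siOct4* at day 6. These shares are descriptions with 2 libraries in a group, and the transcript length used for a gene scales its share.

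**Figure D3:**
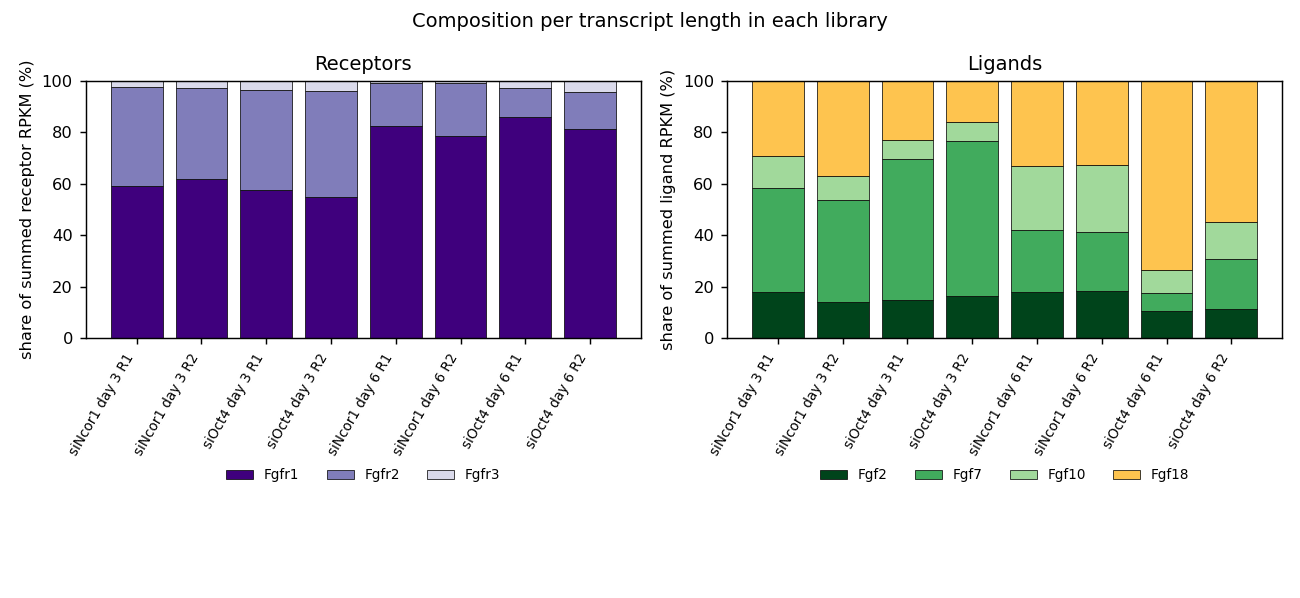
Share (%) of the summed RPKM of the 3 receptors (left) and of the 4 ligands (right) taken by each gene in each of the 8 libraries. The share of *Fgfr2* is smaller in all day 6 libraries than in all day 3 libraries, and *Fgf18* takes 73.6% and 54.9% of the ligand RPKM in the libraries labelled siOct4 at day 6.

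Among the feedback inhibitors, *Dusp6*, a cytoplasmic phosphatase of ERK (chr10:99263231-99267489), showed the largest changes. It was 28.8 and 28.9 CPM in *siNcor1* and 26.5 and 24.6 CPM in those labelled *siOct4* at day 3, and 63.4 and 69.5 CPM against 36.1 and 42.1 CPM at day 6. The 4 groups did not overlap, and both day 6 groups were above both day 3 groups. The difference was −0.18 ± 0.13 at day 3 (limma, adjusted p = 0.760) and −0.77 ± 0.13 at day 6 (adjusted p = 0.00183), a 1.70-fold lower level in the libraries labelled *siOct4*. *Dusp6* rose by 1.20 ± 0.13 from day 3 to day 6 in *siNcor1* (limma, adjusted p = 7.86e-05) and by 0.61 ± 0.13 in those labelled *siOct4* (adjusted p = 0.00215), and both rises held in every setting run.

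The Sprouty genes, whose products inhibit signalling between the receptor and ERK, differed less. *Spry4* (chr18:38586247-38601415) was 42.1 and 45.9 CPM in *siNcor1* and 35.8 and 42.0 CPM in those labelled *siOct4* at day 3, and 62.5 and 56.1 CPM against 47.1 and 42.5 CPM at day 6. *Spry2* (chr14:105891947-105896819) was 37.9 and 40.0 CPM against 33.0 and 32.5 CPM at day 3, and 46.4 and 40.9 CPM against 31.1 and 32.8 CPM at day 6. For each gene the *siNcor1* libraries of day 6 were above all other libraries, and the knockdowns did not overlap at either day. At day 6 the difference was −0.40 ± 0.13 for *Spry4* (log2, SE; limma, adjusted p = 0.0401) and −0.45 ± 0.13 for *Spry2* (adjusted p = 0.0208), and at day 3 it was −0.18 ± 0.13 (adjusted p = 0.760) and −0.25 ± 0.13 (adjusted p = 0.551). *Spry4* rose by 0.43 ± 0.13 from day 3 to day 6 in *siNcor1* (limma, adjusted p = 0.0271), and its change in the libraries labelled *siOct4* was 0.21 ± 0.13 (adjusted p = 0.216). For *Spry2*, the changes between the days were 0.16 ± 0.13 in *siNcor1* (limma, adjusted p = 0.351) and −0.036 ± 0.13 in the libraries labelled *siOct4* (adjusted p = 0.827). The *Spry4* difference at day 6 was lost without *siNcor1* day 3 R1 or R2 (both −0.40), *siNcor1* day 6 R1 (−0.32) or R2 (−0.48) or *siOct4* day 6 R2 (−0.33), and its rise in *siNcor1* without any of the 4 *siNcor1* libraries (0.35 to 0.51). The *Spry2* difference at day 6 was lost without *siNcor1* day 6 R1 (−0.35) or R2 (−0.54).

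At day 3, none of the 10 members differed between the knockdowns (limma, adjusted p under 0.05), where 1.07% of all genes tested did (0.375% higher and 0.692% lower). At an unadjusted p under 0.05 there were 2, *Fgf7* and *Fgfr3*, both with higher values in the libraries labelled *siOct4*, and voom called 1, *Fgf7*. Of the 13866 genes tested, 1460 had an unadjusted p under 0.05 (limma). The median log2 fold change was −0.087 for the members and −0.021 for all genes. For 7 of the members the knockdowns had no overlap between their replicates, as had 43.4% of all genes tested, so the day 3 data do not show that the levels were alike.

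From day 3 to day 6, 6 members changed in *siNcor1* (limma, adjusted p under 0.05), against a background of 34.8% of genes. *Dusp6*, *Fgfr1* and *Spry4* rose (background 13.8%), and *Fgf7*, *Fgfr2* and *Fgfr3* fell (background 20.9%). In the libraries labelled *siOct4*, 5 members changed, against a background of 52.7%, of which *Dusp6* rose (background 22.2%) and *Fgf2*, *Fgf7*, *Fgfr2* and *Fgfr3* fell (background 30.5%). The number of members that changed was therefore close to the background in the latter. Without *siNcor1* day 3 R2 the count in *siNcor1* was 3, without *siNcor1* day 3 R1 or *siNcor1* day 6 R1 it was 4, and without *siOct4* day 6 R1 or R2 it was 8, while the count in the libraries labelled *siOct4* was 4 without any library other than *siOct4* day 6 R2 and 7 without that one. With library totals that leave out *Gm26917*, the median change of all genes in the libraries labelled *siOct4* moved by 0.13 on the log2 scale, and the share of higher genes among those called moved from 42.1% to 52.6%, so time changes of this size depend on the scaling. The days did not overlap for all 10 members in *siNcor1* (73.1% of all genes tested) and for 8 in the libraries labelled *siOct4* (74.8%).

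**Figure D4:**
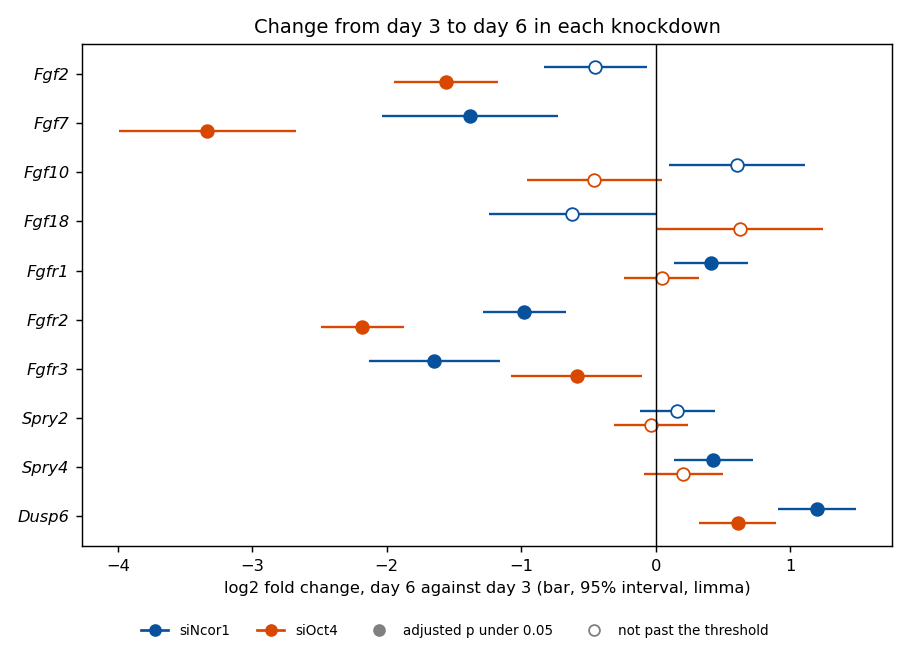
Log2 fold change of each FGF gene from day 3 to day 6 (horizontal axis) in siNcor1 (blue) and in the libraries labelled siOct4 (orange), with 95% intervals from limma and filled points for an adjusted p under 0.05. *Fgf7* and *Fgfr2* lie left of 0 in both and further left in the libraries labelled siOct4, whereas *Dusp6* lies right of 0 in both and further right in siNcor1.

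The change over time differed between the knockdowns for 7 of the 10 members (limma interaction, adjusted p under 0.05), against a background of 20.7% of genes. The interaction, which is the change in the libraries labelled *siOct4* minus that in *siNcor1*, was negative for *Fgf2*, *Fgf7*, *Fgf10*, *Fgfr2* and *Dusp6* (background 12.9%) and positive for *Fgf18* and *Fgfr3* (background 7.77%). *Fgfr2* (−1.21 ± 0.20, SE; limma, adjusted p = 0.00223) was past the threshold in every setting run. The interaction for *Fgf7* was −1.95 ± 0.43 (limma, adjusted p = 0.00905) and that for *Fgf2* was −1.11 ± 0.25 (adjusted p = 0.0105). For *Fgf10* (−1.06 ± 0.33), *Fgf18* (1.25 ± 0.40), *Fgfr3* (1.06 ± 0.32) and *Dusp6* (−0.59 ± 0.19), the adjusted p lay between 0.0347 and 0.0465 (limma). For *Fgfr1*, *Spry2* and *Spry4* the interaction did not pass, with values of −0.37 ± 0.18, −0.20 ± 0.18 and −0.22 ± 0.19 (limma, adjusted p = 0.164, 0.462 and 0.430). Without *siNcor1* day 3 R2, *Fgf7* was at −2.00 (limma, adjusted p = 0.0504), and the *Fgf2* call was lost without *siNcor1* day 3 R2, *siOct4* day 3 R2 or *siNcor1* day 6 R2 (−1.04 to −0.97). The calls of *Fgf10* (−1.23 to −0.81) and *Dusp6* (−0.66 to −0.48) were lost without any library other than *siOct4* day 6 R2, that of *Fgfr3* (0.85 to 1.16) without any other than *siOct4* day 6 R1, and that of *Fgf18* (0.94 to 1.47) without any other than *siOct4* day 3 R1 and *siOct4* day 6 R2. The count of members was 3, 1, 4, 2, 3, 2, 4 and 6 when *siNcor1* day 3 R1 and R2, *siOct4* day 3 R1 and R2, *siNcor1* day 6 R1 and R2, and *siOct4* day 6 R1 and R2 were left out in turn.

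Other genes of the pathway were grouped in 8 lists with 99 genes, of which 87 were in the table and 79 passed the filter. These lists were also chosen with earlier results of these data known. At day 6, 41 of the 79 were lower and 5 were higher (limma, adjusted p under 0.05) in the libraries labelled *siOct4*, against 18.6% and 12.1% of all genes tested. Their median log2 fold change was −0.41. At day 3, 4 of the 79 differed, against 1.07% of all genes, which were *Fgf4* (−1.13) and *Fgfbp1* (−1.53), which encodes a carrier that releases FGFs from the matrix, and *Sdc3* (1.02) and *Dusp9* (1.02). The count at day 6 was 14 without *siNcor1* day 6 R2 and 29 without *siNcor1* day 6 R1, and at day 3 it was 0 without *siNcor1* day 3 R1 or R2 and between 1 and 5 without another library.

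Among the other feedback inhibitors, 6 of 9 were lower (background 18.6%) and none was higher (background 12.1%) at day 6 in the libraries labelled *siOct4*. *Dusp9*, an ERK phosphatase, was 3.59 and 4.18 CPM in *siNcor1* and 7.99 and 7.97 CPM in those labelled *siOct4* at day 3, and 47.5 and 47.1 CPM against 6.76 and 5.77 CPM at day 6. Thus *siNcor1* at day 6 stood above all other groups, and the difference was −2.89 ± 0.18 (log2, SE; limma, adjusted p = 7.74e-06). The nuclear phosphatase gene *Dusp5* (−1.14), *Il17rd* (−0.81), which encodes the receptor antagonist SEF, and *Spred3* (−0.79) were also lower. In *siNcor1*, 6 of the 9 rose from day 3 to day 6, among them *Dusp9* (3.56), *Dusp4* (0.70), *Dusp5* (0.68) and *Spry1* (0.57). In the libraries labelled *siOct4*, 0 of the 9 passed the threshold between the days (limma), where 52.7% of all genes passed. An unadjusted p under 0.05 was found for 1 of the 9, and for 8067 of the 13866 genes tested. The interaction was negative for 4 of the 9, where this was so for 12.9% of all genes.

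Of the ERK-responsive transcription factors and early genes, 5 of 13 were lower (background 18.6%) at day 6 in the libraries labelled *siOct4* and 1 was higher (background 12.1%). The lower genes included *Etv1* (−0.91), *Dusp1* (−0.91), *Phlda1* (−0.77) and *Ier3* (−0.58). In *siNcor1*, 5 of the 13 rose between the days and none fell, among them *Etv1* (1.24), *Etv4* (1.00), *Fosl1* (0.65) and *Etv5* (0.47). In the libraries labelled *siOct4*, 4 rose and 3 fell, a share of 53.8% that is close to the background of 52.7%. *Etv4*, a PEA3 factor, rose in both, by 1.00 and 1.28 on the log2 scale, and was 53.8 and 48.8 CPM in *siNcor1* and 55.8 and 46.8 CPM in those labelled *siOct4* at day 6, which overlap. The counts of 5 of 13 and 6 of 9 rising genes in *siNcor1* stand beside 13.8% of all genes.

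Over all genes tested, 18.6% were lower and 12.1% were higher at day 6, which is the background for the day 6 counts below. The heparan sulphate proteoglycans and their enzymes had 14 of 20 genes lower and 1 higher at day 6, including the syndecan *Sdc4* (−1.03), the glypicans *Gpc4* (−0.98) and *Gpc2* (0.88), and the sulphotransferase *Hs6st2* (−0.80). Between the days, 6 fell and 2 rose in *siNcor1*, where 20.9% of all genes fell and 13.8% rose. In the libraries labelled *siOct4*, 15 fell and 2 rose, where 30.5% fell and 22.2% rose. Of the other receptors and co-receptors, 4 of 6 were lower at day 6, which were *Flrt3* (−1.03), *Flrt2* (−0.96), the decoy receptor *Fgfrl1* (−0.76) and *Fgfbp1* (−0.69). Receptor adaptors were lower in 9 of 14 cases, with *Gab2* (−0.82), *Cblb* (−0.75), *Frs2* (−0.68) and *Shc1* (−0.63), where *Frs2* encodes the docking protein that couples FGF receptors to RAS. The kinase cascade had the fewest changes among the larger lists, with 3 of 14 lower (*Ksr1*, −0.73; *Mapk3*, −0.49; *Nf1*, −0.41) and 1 higher (*Map2k1*, 0.41), a share of 28.6% that is close to the background of 30.7%. Of 14 other ligands, 2 passed the filter, and *Fgf16* was higher at day 6 (1.47 ± 0.31, limma, adjusted p = 0.00511). The intracellular factor *Fgf13*, which is not secreted, was also higher (1.09 ± 0.28, limma, adjusted p = 0.0126). The fibroblast marker list above was lower in 8 of 11 genes at the same day, and its part in the changes of these lists was not tested.

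**Figure D5:**
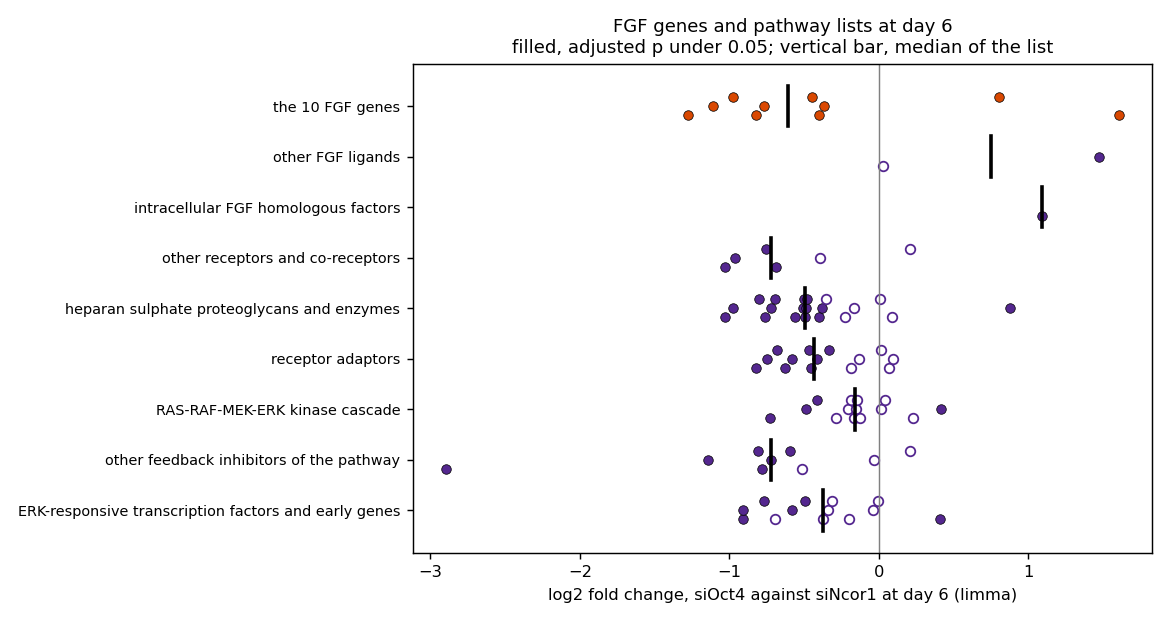
Log2 fold change between the libraries labelled siOct4 and siNcor1 at day 6 (horizontal axis) for the 10 FGF genes and for the genes of 8 pathway lists, each point 1 gene, filled for an adjusted p under 0.05 (limma), with a vertical bar at the median of the list. Most points of the feedback, adaptor and heparan sulphate lists lie left of 0, *Dusp9* lies furthest left at −2.89, and the points of the kinase cascade gather near 0.

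For each member, the genes with the most similar log2-cpm profile over the 8 libraries were found by Pearson correlation among all genes tested. They are a description, since the 8 points form 4 groups of 2 and share their libraries. *Fgfr2* was most like *Tead1*, *Ccdc80* and *Sptbn1* (r = 0.998 each), and *Fgf7* was most like *Dync1li2* (r = 0.997), *Acbd3* and *Cdh2* (r = 0.995 each). *Fgf2* was most like *Syde1* (r = 0.997), *Nuak1* and *Parm1* (r = 0.996 each). For *Dusp6* the closest were *Sema5a* (r = 0.992), *Gria1* (r = 0.990) and *Slc2a3* (r = 0.989), and for *Fgfr3* they were *Mars2* (r = 0.991), *Peg12* (r = 0.979) and *Slc6a15* (r = 0.976). *Fgf10* was nearest to *Osbp2* (r = 0.983), *Zkscan7* (r = 0.980) and *Hmga2* (r = 0.977). The least close matches were those of *Spry2* (*Wdr45*, r = 0.974, *Tcf4*, r = 0.949, and *C1qtnf1*, r = 0.946), *Fgfr1* (*Porcn*, r = 0.964, *Lama5* and *Stat5a*, r = 0.951 each), *Spry4* (*Dnaaf3*, r = 0.959, *Dkk2*, r = 0.958, and *Pced1b*, r = 0.957) and *Fgf18* (*Bag4*, r = 0.937, *B3gntl1*, r = 0.930, and *Ebag9*, r = 0.921).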

How the data were processed

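Transcriptome profiling by total RNA-seq after ribosomal RNA depletion was performed at day 3 and day 6. Per the labels, reads were aligned to mm10 with STAR 2.5.2b, and the authors deposited log2-cpm values made with edgeR 3.20.9. The counting tool and its strand setting are not given in the sources used here. On the linear scale, after removal of the value of a gene with 0 reads (−2.87 on the log2 scale), 100% of values were whole multiples of 1 read within 0.1 read, which gave the reads and CPM used here. Fold changes are on the deposited scale, which adds a small constant and so understates changes of low genes.

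Genes averaging 1 CPM or more were tested with limma 3.58.1 in R 4.3.3 (lmFit, and eBayes with a variance trend) on the deposited values, with the 4 groups fitted together, 5 comparisons, and Benjamini-Hochberg adjustment over 13866 genes at 0.05. RPKM used the longest coding transcript of GENCODE M21. The members and lists were chosen with earlier results of these data known. Named are all 10 members, per list and comparison up to 4 genes with the largest change among those called whose replicates did not overlap, and for each member the 3 genes of highest correlation. *Etv4* at day 6 was added after its values were seen. As alternatives, 11 other settings and the omission of each library in turn were run. Replicates within groups were further apart than counting noise allows, with a chi-square of 8.44 to 18.7 per degree of freedom. Figures were drawn with matplotlib 3.10.9.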

Additional observations from a re-analysis of the deposited data

Results flagged for a closer look

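The difference between the knockdowns was not the same at day 3 and day 6 for 7 FGF genes, by a limma interaction term with adjustment over all genes tested. The values on the log2 scale, as the day 6 minus the day 3 difference of the libraries labelled *siOct4* from *siNcor1*, were −1.95 for *Fgf7*, −1.21 for *Fgfr2*, −1.11 for *Fgf2*, −1.06 for *Fgf10* and −0.59 for *Dusp6*, and 1.25 for *Fgf18* and 1.06 for *Fgfr3*. The same term passed the threshold for 32 of the 79 pathway genes tested, of which 29 were negative and 3 were positive, where 20.7% of all genes passed.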

How the results depend on the processing

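Of 50 log2 fold changes of FGF genes (10 genes, 5 comparisons), 24 kept their direction and their side of the threshold in each of the other settings and omissions of a library that were run. At day 3, a fit of only the groups compared and voom on the recovered reads each called 1 member in place of 0, and without the variance trend 2 pathway genes were called in place of 4. At day 6, 6 members were called without the trend and 5 in a fit of only the groups compared, in place of 10. The pathway genes called in these fits were also fewer, at 32 and 33 in place of 46. The share of all genes called in these fits is not given here. For the interaction, the members called were 4 without the trend and 3 without the filter, in place of 7, and the pathway genes were 21 without the trend in place of 32. With a mean of at least 10 CPM, 7 members were tested and 4 were called for the interaction. No call of a tested member changed there, and *Fgf10*, *Fgf18* and *Fgfr3* were not tested. The cause was not tested, other than that the stricter filter tested fewer genes and the fit of 2 groups used fewer samples.

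With each library left out in turn, the members called were 0 to 1 at day 3, 4 to 9 at day 6, 3 to 8 between the days in *siNcor1*, 4 to 7 between the days in the libraries labelled *siOct4*, and 1 to 6 for the interaction. The pathway genes called were 0 to 5, 14 to 47, 20 to 51, 46 to 52 and 13 to 37. An arm left with 1 library is assumed to vary like the other groups.

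The direction turned for values near 0. The day 3 difference of *Fgfr1* was −0.019 with quantile normalization, −0.040 with library totals without *Gm26917*, and −0.039 to 0.042 with a library left out (−0.013 without *siNcor1* day 3 R2 and −0.039 without *siOct4* day 3 R2). The change of *Fgfr1* between the days in the libraries labelled *siOct4* was −0.075 to 0.16 with a library left out, and negative without *siOct4* day 6 R1. That of *Spry2* was 0.035 with median centring, 0.087 with quantile normalization, 0.10 with library totals without *Gm26917* and −0.076 to 0.0040 with a library left out, and positive without *siOct4* day 6 R1.

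Among all genes, the share of higher genes in the day 3 calls was 35.1%, and 55.1% with voom. The labels do not say that a replicate number marks a shared batch. Libraries with the same number had deviations from their group means that correlated by −0.040 to 0.281, above 0.1 for 3 of 6 pairs of groups. The highest value was that of *siNcor1* day 6 with *siOct4* day 6. The main fit did not pair the libraries, since the labels name no batch, and a replicate block was run as an alternative. In the fit with a replicate block, 10 members were called at day 6 and 7 for the interaction, and no call of a member changed, while the pathway genes called for the interaction were 37 in place of 32. Differences of more than 2 standard errors did not always pass after adjustment over all genes tested. For *Fgf7* at day 3 (0.84 ± 0.30), the unadjusted p was 0.0162 and the adjusted p was 0.277 (limma, 4 groups together). The log2 standard deviation of *Fgf7* was 0.068 (*siNcor1*) and 0.093 (*siOct4* label) at day 3, and 0.084 and 0.854 at day 6. It passed in a limma fit of only the day 3 groups (adjusted p = 0.0173), which also have 2 libraries each. *Fgf7*, *Fgf10*, *Fgf18* and *Fgfr3* rest on 17 to 134 reads in a library at day 6.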
